A study of Mus musculus with 8 samples.

Results

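The ETS family of transcription factors was examined through 10 of its members that are known from blood cells: Erg, Fli1, Ets1, Ets2, Etv6, Spi1, Spib, Elf1, Elf4 and Gabpa. They were found on the array as all non-control probes whose transcript accession maps to these symbols, and are 10 of the 20125 genes that could be named. The members are covered by 14 probes, of which Erg, Ets1, Gabpa and Elf1 have 2 each, and for each gene the probe with the higher mean stood for the gene. The samples were mouse pro-B cell lines grown from Lin− fetal liver cells of Ebf1-deficient animals, so that all 4 groups are deficient for the B-lineage factor EBF1 and were kept with SCF, Flt3L and IL-7 on stromal cells. Pro-B(+) cells were established on OP9 stroma and can enter the T lineage, whereas pro-B(-) cells were established on TD7 thymic stroma and cannot. The other two groups were pro-B(-) cells that carried the lentiviral vector pLVS-EF-IR2, which marks cells with rat CD2, either empty (pro-B(-)/Mock) or with mouse Lmo2 (pro-B(-)/LMO2). Each group had 2 arrays. The labels do not give the number of lines or clones behind a group, the stroma on which the transductants were kept, or whether the arrays of a group came from separate cultures, so that p-values measure only the spread between these arrays, which may be technical.

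ETS factors bind DNA through a winged helix-turn-helix domain that recognises a GGAA core. ERG and FLI1 are close relatives that act in haematopoietic stem cells, megakaryocytes and endothelium, ETS1 and ETS2 respond to MAP kinase signals and ETS1 is prominent in lymphocytes, and PU.1 (the product of Spi1) and Spi-B set the balance between myeloid, dendritic and lymphoid fates. ERG and FLI1 occupy many enhancers of blood progenitors together with LMO2, TAL1, LYL1, GATA2 and RUNX1, and LMO2 itself does not touch DNA but bridges such factors.

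Values are log2 of the processed intensity minus the array's own 75th percentile, so that a level of 0 lies at that percentile. Since probes differ in brightness, levels are compared between groups and never between genes. Replicate arrays correlated at r = 0.999 in each group, and 56.5% to 61.2% of an array's probes passed as well above background. The arrays of the 2 parental lines shared one slide and scan, and those of the transductants the other slide and scan, so that slide and group cannot be told apart in any comparison of a transductant with a parental line. The transferred gene, Lmo2, had mean levels of 2.10 in pro-B(+), 0.63 in pro-B(-), 0.35 in pro-B(-)/Mock and 0.96 in pro-B(-)/LMO2 cells, and the position of its probe relative to the transferred cDNA was not examined. The Ebf1 probe was well above background on all 8 arrays, and likewise checks nothing about the deleted part of that gene. Among the pro-B markers, Igll1 was not well above background in pro-B(+) cells, and Cd79a was not in either transductant. In such bulk samples fewer cells of a type and less RNA per cell cannot be told apart.

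The promoters of the members with the largest changes, Erg, Ets2 and Spib, are shown first so that the letters around their starts can be set against the levels. RefSeq sequences of assembly GRCm38.p6 were at hand for 7 of the 10 members (Erg, Ets2, Gabpa, Etv6, Spib, Elf1 and Elf4), as windows of 300 bases from 250 before to 50 after a transcript start, and are printed 5′ to 3′ on the gene's own strand. Capitals mark matches, on either strand, to the ETS motifs AGGAAG and CCGGAA, which both hold the GGAA core, to the GATA motif AGATAA, and to the E-box CAGNTG. These are found in 35.4%, 14.9%, 11.2% and 51.4% of all 32851 windows of this length.
Erg, most upstream start, chr16:95586544-95586843, minus strand: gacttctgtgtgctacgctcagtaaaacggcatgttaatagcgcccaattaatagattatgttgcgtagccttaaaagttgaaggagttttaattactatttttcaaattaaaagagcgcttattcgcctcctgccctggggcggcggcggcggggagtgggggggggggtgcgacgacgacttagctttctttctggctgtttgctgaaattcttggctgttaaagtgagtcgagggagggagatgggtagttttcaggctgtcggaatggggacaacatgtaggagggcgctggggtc
Erg, middle start, chr16:95530316-95530615, minus strand: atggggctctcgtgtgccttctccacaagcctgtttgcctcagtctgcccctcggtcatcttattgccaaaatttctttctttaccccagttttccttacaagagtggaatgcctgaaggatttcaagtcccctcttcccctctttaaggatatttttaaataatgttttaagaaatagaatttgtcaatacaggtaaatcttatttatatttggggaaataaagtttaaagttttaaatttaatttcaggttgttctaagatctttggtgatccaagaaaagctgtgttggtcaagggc
Erg, most downstream start, chr16:95459299-95459598, minus strand: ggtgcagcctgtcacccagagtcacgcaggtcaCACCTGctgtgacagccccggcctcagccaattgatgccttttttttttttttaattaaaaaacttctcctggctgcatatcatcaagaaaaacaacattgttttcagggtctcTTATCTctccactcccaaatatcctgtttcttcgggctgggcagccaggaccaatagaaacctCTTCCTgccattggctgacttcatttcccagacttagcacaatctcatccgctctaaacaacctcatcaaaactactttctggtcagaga
Ets2, chr16:95702157-95702456, plus strand: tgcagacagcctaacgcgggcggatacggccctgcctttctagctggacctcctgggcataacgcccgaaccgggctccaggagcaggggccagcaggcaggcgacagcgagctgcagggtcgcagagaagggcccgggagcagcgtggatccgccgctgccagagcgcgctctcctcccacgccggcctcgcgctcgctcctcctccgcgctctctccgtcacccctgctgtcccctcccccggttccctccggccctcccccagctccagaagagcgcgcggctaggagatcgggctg
Spib, chr7:44532022-44532321, minus strand: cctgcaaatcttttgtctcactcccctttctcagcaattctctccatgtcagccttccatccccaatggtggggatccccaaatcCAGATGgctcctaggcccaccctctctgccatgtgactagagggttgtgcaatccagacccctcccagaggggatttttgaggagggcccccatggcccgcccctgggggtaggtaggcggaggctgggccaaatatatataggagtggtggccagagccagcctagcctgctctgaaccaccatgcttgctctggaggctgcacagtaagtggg
The most downstream Erg window held 1 match to AGGAAG, 1 to the GATA motif and 1 to the E-box, whereas the other 2 Erg windows and that of Ets2 held none of the 4 motifs. The Spib window held 1 match to CAGNTG. Of the windows not printed, that of Gabpa held 2 matches to AGGAAG and 1 to CCGGAA, that of Etv6 held 1 to AGGAAG, the more upstream one of Elf4 held 2 to AGGAAG and 2 to the E-box, and the more downstream one of Elf1 held 1 to the E-box. The other window of Elf1 and that of Elf4 held none. A match is a description of the letters and not a binding site. Erg and Ets2 are neighbouring protein-coding genes of chromosome 16, with 0 protein-coding genes between them and transcription running away from each other, and Fli1 and Ets1 are likewise neighbours on chromosome 9.

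The first comparison asked how the family differs by T-lineage potential, with pro-B(+) set against pro-B(-). Spib and Spi1 were higher in pro-B(+) cells, Erg, Ets2, Elf1, Ets1 and Fli1 were lower, and Gabpa, Etv6 and Elf4 did not pass the test. Thus 7 of 10 members were called by limma at a Benjamini-Hochberg adjusted p under 0.05, where 48.6% of all 23468 probes tested were called. The 2 members called higher compare with 20.6% of all probes and the 5 called lower with 28% of all probes. Spib and Erg were also past 2-fold, as were 11% of all probes.

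The second asked what differs once Lmo2 is added, with pro-B(-)/LMO2 set against pro-B(-)/Mock, which share the vector, the slide and the scan. All 10 members were called, against 64% of 22998 probes. Spib, Elf4, Etv6, Spi1 and Fli1 were higher with Lmo2 (5 members, 28% of probes), and Erg, Ets2, Ets1, Gabpa and Elf1 were lower (5 members, 36% of probes). Past 2-fold were 4 members, Erg, Ets2, Spib and Elf4, as were 10.3% of probes. With 1 probe per gene, 8815 of 12927 genes were called, and 11.1% were called and past 2-fold. The median change of the 10 members was -0.16 in the parental comparison and 0.04 with Lmo2, beside medians of -0.04 and -0.04 over all probes tested, and their median size of change was 0.34 and 0.51 beside 0.20 and 0.31. The scaling matters for small changes: with each array centred on its median in place of the 75th percentile, the median change over all probes moved from -0.04 to -0.33 in the parental comparison, where 2932 of 18511 called probes were then higher in place of 4833 of 11400. With Lmo2 it moved to -0.25, and 4000 of 16327 called probes were higher in place of 6441 of 14728. Small changes of Fli1, Ets1, Spi1, Gabpa, Etv6 and Elf1 are therefore also given relative to the median of all probes.

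**Figure D1:**
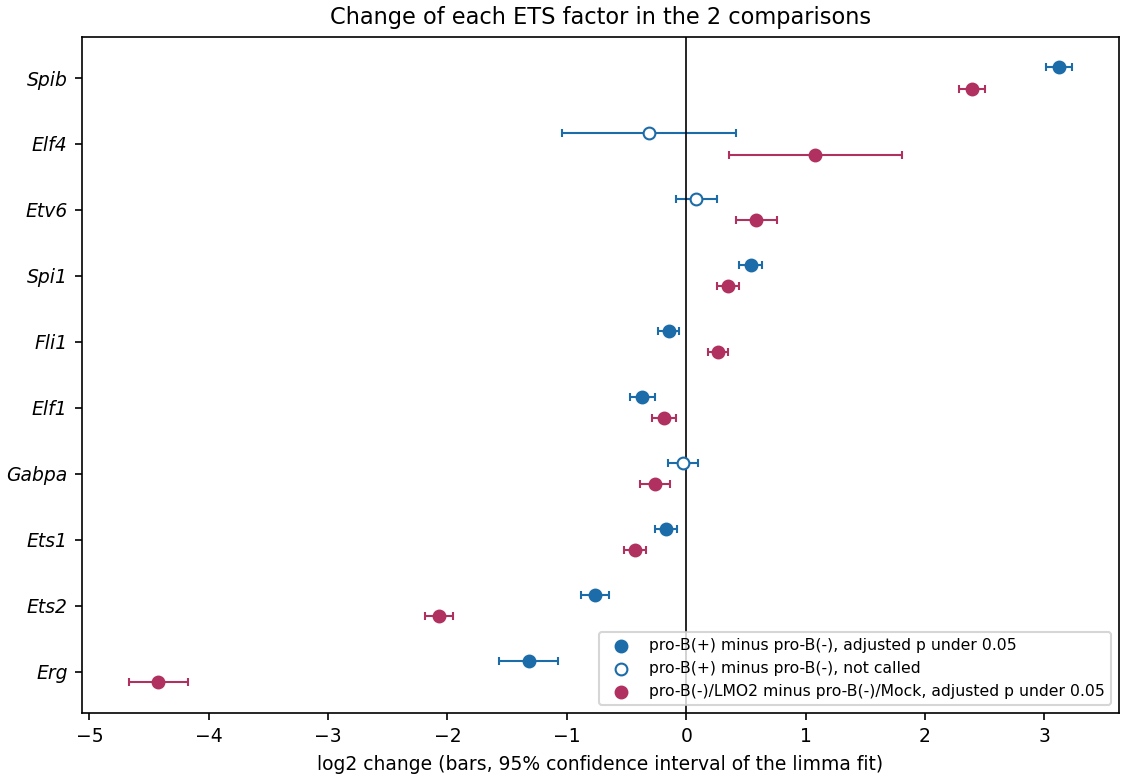
Log2 change of each of the 10 ETS factors in pro-B(+) minus pro-B(-) cells (blue) and in pro-B(-)/LMO2 minus pro-B(-)/Mock cells (red), with the 95% confidence interval of the limma fit over 8 arrays; filled points passed an adjusted p of 0.05. Erg and Ets2 lie to the left of 0 and Spib and Spi1 to the right in both, and Fli1 lies on opposite sides, at -0.15 and 0.26.

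Erg, a factor needed to keep haematopoietic stem cells, showed the largest fall of the 10 members in both comparisons. Its level was -2.97 and -2.81 on the 2 pro-B(+) arrays and -1.57 and -1.57 on the 2 pro-B(-) arrays. It was -1.01 and -0.91 on the pro-B(-)/Mock arrays and -5.50 and -5.26 on the pro-B(-)/LMO2 arrays. The arrays of all 4 groups lay apart, with pro-B(-)/Mock the highest and pro-B(-)/LMO2 the lowest. Between the parental lines Erg was thus 2.50-fold lower in pro-B(+) (log2 change -1.32, SE 0.098, limma adjusted p = 0.000193), number 352 from the lowest of the 23468 probes tested. With Lmo2 it was 21.4-fold lower (log2 change -4.42, SE 0.098, adjusted p = 2.78e-06), which placed it 18th from the lowest of 22998 probes. The lowest signal well above background on the pro-B(-)/LMO2 arrays was -5.79 and -6.23, so that the low end of this fold rests on dim signals. With normexp background correction, whose offset compresses dim signals, the change with Lmo2 was -2.38.

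The other Erg probe moved the same way. Its level was -5.31 and -5.08 in pro-B(+), -3.71 and -3.63 in pro-B(-), -3.34 and -3.37 in pro-B(-)/Mock, and -7.74 and -8.13 in pro-B(-)/LMO2 cells. It was well above background on 1 of 2 pro-B(+) arrays and on neither pro-B(-)/LMO2 array. The parental log2 change was -1.52 (SE 0.14, adjusted p = 0.000499), and the signal was at least 6.32-fold lower with Lmo2 than with the empty vector (adjusted p = 7.36e-06).

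Fli1, the nearest relative of Erg, went opposite ways in the 2 comparisons, by small amounts. Its level was 1.57 and 1.61 in pro-B(+), 1.74 and 1.74 in pro-B(-), 1.96 and 1.92 in pro-B(-)/Mock, and 2.18 and 2.22 in pro-B(-)/LMO2 cells. The groups did not overlap, and their order, with pro-B(-)/LMO2 at the top, was not that of Erg. Fli1 was lower in pro-B(+) cells by a log2 change of -0.15 (SE 0.034, adjusted p = 0.0164; -0.11 relative to the median of all probes) and higher with Lmo2 by 0.26 (SE 0.034, adjusted p = 0.00118; 0.31 relative to that median). Centred on the array medians, the parental change was -0.43 (adjusted p = 0.000233), and that with Lmo2 was 0.06 and was not called (adjusted p = 0.236). The parental call was lost without pro-B(+) replicate 1 (adjusted p = 0.0765), without pro-B(-) replicate 1 (0.0595) and without pro-B(-) replicate 2 (0.0625).

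**Figure D2:**
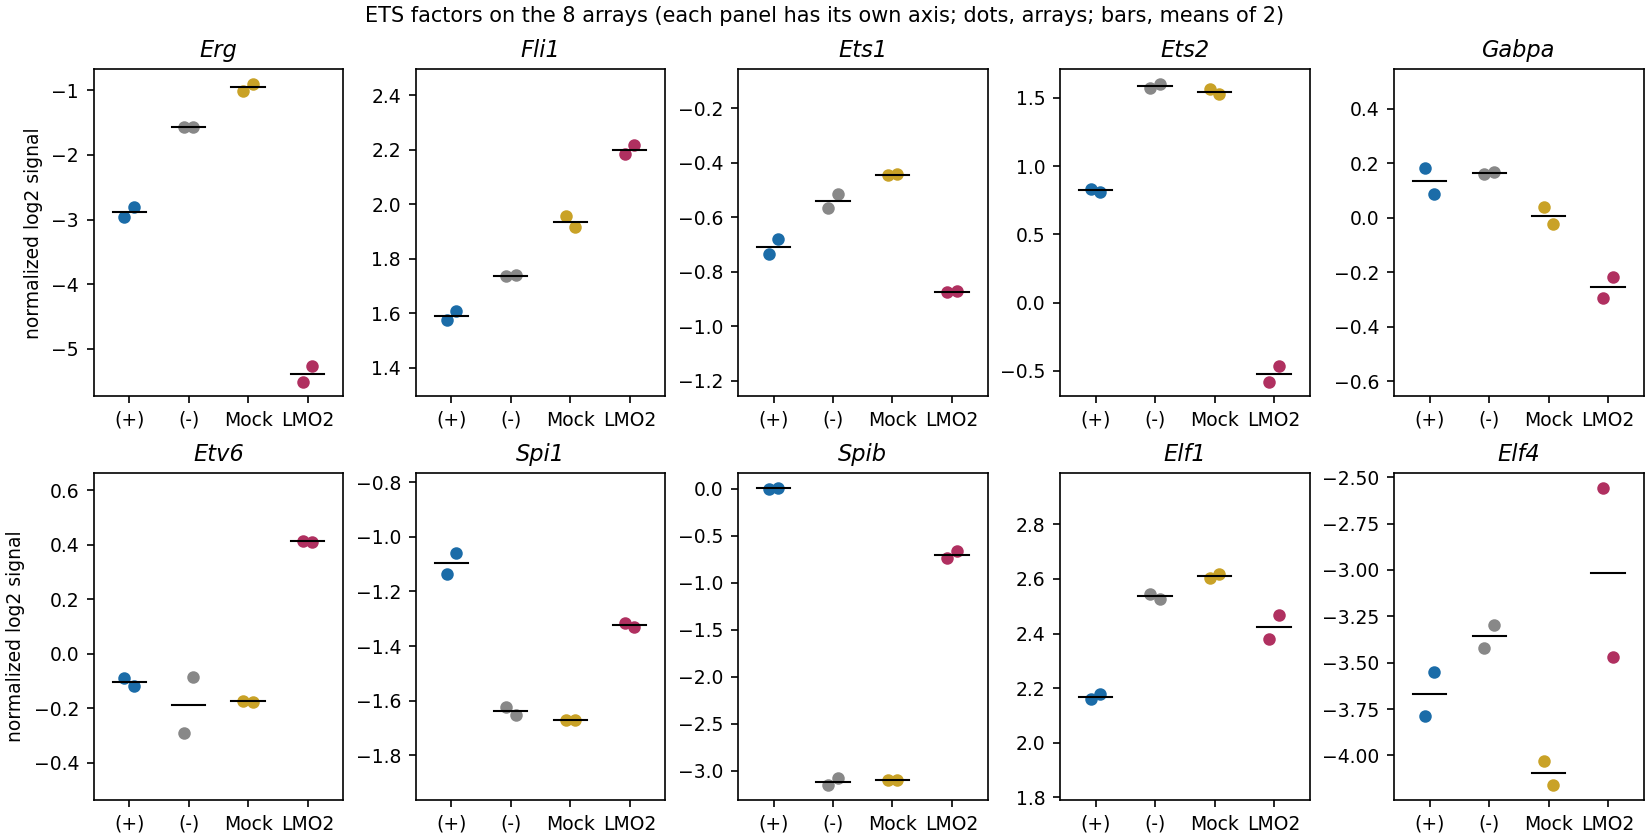
Normalized log2 signal of each of the 10 ETS factors on the 8 arrays; dots are arrays, bars are means of 2 arrays, and each panel has its own vertical axis. Erg and Ets2 are lowest in pro-B(-)/LMO2 cells, Spib and Spi1 are high in pro-B(+) and pro-B(-)/LMO2 cells, and the 2 pro-B(-)/LMO2 arrays of Elf4 lie apart, at -2.56 and -3.47.

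Ets2, a target of Ras signalling, followed Erg in direction. Its level was 0.84 and 0.81 in pro-B(+), 1.58 and 1.60 in pro-B(-), 1.56 and 1.53 in pro-B(-)/Mock, and -0.58 and -0.47 in pro-B(-)/LMO2 cells. The pro-B(-) and pro-B(-)/Mock arrays lay side by side, pro-B(+) below them and pro-B(-)/LMO2 lowest. Between the parental lines Ets2 was 1.70-fold lower in pro-B(+) (log2 change -0.77, SE 0.047, adjusted p = 9.28e-05) and 4.20-fold lower with Lmo2 (log2 change -2.07, SE 0.047, adjusted p = 2.96e-06).

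Ets1, which is needed for normal lymphocyte development, moved in the same directions by less. Its level was -0.73 and -0.68 in pro-B(+), -0.57 and -0.51 in pro-B(-), -0.45 and -0.44 in pro-B(-)/Mock, and -0.87 and -0.87 in pro-B(-)/LMO2 cells. The fall with Lmo2 was 1.35-fold (log2 change -0.43, SE 0.037, adjusted p = 0.000239), and the other probe gave -0.67 (adjusted p = 0.00134). The parental difference was -0.17 (SE 0.037, adjusted p = 0.0137; -0.13 relative to the median of all probes, where the change with Lmo2 was -0.39), and the other probe, at -0.12, did not pass (adjusted p = 0.318). Without pro-B(+) replicate 1 and without pro-B(-) replicate 2 the call was lost (adjusted p = 0.0665 and 0.0632). Fli1 and Ets1 also lost their parental calls with no filter on dim probes (adjusted p = 0.0737 and 0.0594) and in a fit of the 4 parental arrays alone (0.0513 and 0.0553), and Ets1 with the mean of its probes (0.0921). Centred on the array medians, the parental change of Ets1 was -0.45 and was called (adjusted p = 0.000163).

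Spib, which encodes Spi-B of B cells and plasmacytoid dendritic cells, showed the largest rise of the 10 members in both comparisons. Its level was -0.00 and 0.01 in pro-B(+), -3.15 and -3.08 in pro-B(-), -3.10 and -3.10 in pro-B(-)/Mock, and -0.74 and -0.66 in pro-B(-)/LMO2 cells. The pro-B(+) and pro-B(-)/LMO2 arrays were thus high and the other 4 arrays low, with a wide gap between them. Between the parental lines Spib was 8.69-fold higher in pro-B(+) (log2 change 3.12, SE 0.044, adjusted p = 6.44e-07) and 5.26-fold higher with Lmo2 (log2 change 2.40, SE 0.044, adjusted p = 1.6e-06). The pro-B(-)/LMO2 cells stayed below the pro-B(+) cells by 0.71 (adjusted p = 4.42e-05), across slides.

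Spi1, which encodes the myeloid and early lymphoid regulator PU.1, was also highest in pro-B(+) and next in pro-B(-)/LMO2 cells, with smaller steps than Spib. Its level was -1.13 and -1.06 in pro-B(+), -1.62 and -1.65 in pro-B(-), -1.67 and -1.67 in pro-B(-)/Mock, and -1.32 and -1.33 in pro-B(-)/LMO2 cells. The parental rise in pro-B(+) was 1.46-fold (log2 change 0.54, SE 0.038, adjusted p = 0.000159), and the rise with Lmo2 was 1.27-fold (log2 change 0.35, SE 0.038, adjusted p = 0.000603). Relative to the median of all probes these changes were 0.58 and 0.39, and centred on the array medians they were 0.26 and 0.14, and both were still called.

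Myeloid markers were higher in pro-B(+) cells, as the SPI factors were, and went both ways with Lmo2. Of 13 markers of myeloid cells, 12 were named on the array, all 12 were tested in the parental comparison and all 12 were higher in pro-B(+) cells, beside 20.6% of all probes. With Lmo2, 4 of 8 tested were higher and 2 lower, beside 28% and 36% of all probes. Their summed level, as a multiple of the array's 75th percentile, was 38.1 to 38.3 in pro-B(+), 2.32 to 2.36 in pro-B(-), 2.03 to 2.04 in pro-B(-)/Mock and 16.4 to 17.2 in pro-B(-)/LMO2 cells. Mpo, the peroxidase of neutrophil granules, rose by a log2 change of 3.43 in pro-B(+) cells and of 4.38 with Lmo2, and Camp, another granule gene, by 3.70 and 0.76. Most of the sum in pro-B(-)/LMO2 cells was Mpo alone, with a mean log2 level of 3.97 there and -0.41 in pro-B(-)/Mock cells. The rise of the sum with Lmo2 thus mostly follows 1 gene, but the list moved as well. Its median log2 change over the 8 genes tested was 0.61, beside -0.04 over all probes. Lyz2 and Cebpa, named after their values were seen, also rose with Lmo2. The rise was at least 10.5-fold for Lyz2 (adjusted p = 1.39e-05) and a log2 change of 1.74 for Cebpa (7.26e-06). Ctsg, the granule protease cathepsin G, rose by 3.53 in pro-B(+) cells and was at least 2.20-fold lower with Lmo2. Adgre1, the macrophage antigen F4/80 and the other myeloid gene that fell with Lmo2, changed by 2.65 in pro-B(+) cells and by -1.21 with Lmo2 (adjusted p = 1.86e-06 and 2.74e-05), and is named after its values were seen. The defining neutrophil genes S100a8, S100a9 and Ltf were not well above background on any pro-B(-), pro-B(-)/Mock or pro-B(-)/LMO2 array. The part of myeloid cells in the Spib and Spi1 results was not tested.

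Gabpa encodes the DNA-binding subunit of a factor that drives Il7r and many housekeeping genes. Its level was 0.18 and 0.09 in pro-B(+), 0.16 and 0.17 in pro-B(-), 0.04 and -0.02 in pro-B(-)/Mock, and -0.29 and -0.22 in pro-B(-)/LMO2 cells. It fell 1.20-fold with Lmo2 (log2 change -0.26, SE 0.051, adjusted p = 0.00584), and the other probe fell alike (-0.25, adjusted p = 0.00541). The 2 parental groups overlapped: the difference was -0.03, with a 95% confidence interval of -0.15 to 0.10, while the other probe was called at -0.17 (adjusted p = 0.0333). Centred on the array medians, Gabpa too was called lower in pro-B(+) cells (-0.31, adjusted p = 0.00617), and its change with Lmo2 was -0.47 (0.0012). Relative to the median of all probes the changes were 0.015, of turned sign, and -0.22.

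Etv6 encodes a repressor that bone marrow stem cells require. Its level was -0.09 and -0.12 in pro-B(+), -0.29 and -0.08 in pro-B(-), -0.17 and -0.18 in pro-B(-)/Mock, and 0.42 and 0.41 in pro-B(-)/LMO2 cells. Only the pro-B(-)/LMO2 arrays stood apart, and the rise over the empty vector was a log2 change of 0.59 (SE 0.069, adjusted p = 0.000799). The parental difference of 0.08 had an interval of -0.09 to 0.26 and no settled sign, since it was -0.20 with the arrays centred on their medians (adjusted p = 0.0457). Without pro-B(-) replicate 2, the higher of that group, it was called at 0.19 (adjusted p = 0.0245). Relative to the median of all probes the changes were 0.13 and 0.63, and the change with Lmo2 was 0.38 (adjusted p = 0.00484) with the arrays centred on their medians.

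Elf1 and Elf4 are related factors of lymphocytes, and Elf4 restrains their cycling. The level of Elf1 was 2.16 and 2.18 in pro-B(+), 2.55 and 2.53 in pro-B(-), 2.60 and 2.62 in pro-B(-)/Mock, and 2.38 and 2.47 in pro-B(-)/LMO2 cells. Elf1 was thus highest on the pro-B(-) and pro-B(-)/Mock arrays and lowest on the pro-B(+) arrays by this probe, whereas the other probe was lowest in pro-B(-)/LMO2 cells (-1.05 and -1.15, against -1.01 and -1.03 in pro-B(+)). It was 1.29-fold lower in pro-B(+) cells (log2 change -0.37, SE 0.041, adjusted p = 0.00101; other probe -0.32, adjusted p = 0.00395). With Lmo2 its log2 change was -0.19 (SE 0.041, adjusted p = 0.00912; other probe -0.20, adjusted p = 0.0142), and quantile normalization left -0.09 with no call (adjusted p = 0.0926). Relative to the median of all probes the changes of Elf1 were -0.32 and -0.14, and with the arrays centred on their medians they were -0.65 (adjusted p = 0.000115) and -0.40 (0.00058).

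Elf4 was the least precise member. Its level was -3.79 and -3.55 in pro-B(+), -3.42 and -3.30 in pro-B(-), -4.03 and -4.16 in pro-B(-)/Mock, and -2.56 and -3.47 in pro-B(-)/LMO2 cells. The 2 arrays of pro-B(-)/LMO2 cells differed by more than the groups of the parental comparison. The rise with Lmo2 was 2.12-fold (log2 change 1.08, SE 0.29, adjusted p = 0.0205). It was 0.63 without pro-B(-)/LMO2 replicate 1 and 0.55 with normexp background correction, and the call was lost without pro-B(-)/Mock replicate 1 or 2 (adjusted p = 0.0635 and 0.0892) and in a fit of the 4 transductant arrays alone (0.0575). The parental difference of -0.31 had a wide interval of -1.04 to 0.42.

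The effect of the vector alone can only be read across the 2 slides. With pro-B(-)/Mock set against pro-B(-), 3 of 10 members were called, where 58.1% of 23048 probes were: Erg and Fli1 were higher (27.9% of probes) and Gabpa was lower (30.2% of probes). Past 2-fold were 0 members, beside 9.28% of probes. With 1 probe per gene, 7676 of 12898 genes were called, and 9.56% were called and past 2-fold. The change was 0.61 for Erg (SE 0.098, adjusted p = 0.0037), 0.20 for Fli1 (SE 0.034, adjusted p = 0.00493) and -0.16 for Gabpa (SE 0.051, adjusted p = 0.0439). The other Erg probe, at 0.32, did not pass (adjusted p = 0.105), the other Elf1 probe did at -0.19 (adjusted p = 0.0202), and the Gabpa call was lost without any 1 of the 6 arrays outside the pro-B(+) group (adjusted p = 0.0536 to 0.183). Elf4 was not called at -0.74 (adjusted p = 0.076), but was with normexp (-0.38, 0.0286), an intensity trend (0.0288), the arrays of these groups alone (0.00397) or without either pro-B(-)/LMO2 array (0.00569 and 0.0052), and Ets1 was with median scaling (0.11, 0.0375). Stromal markers moved in this comparison too: of 10 on the array 8 were tested, 7 were higher in pro-B(-)/Mock and 0 lower. Their summed level was 15.9 to 16.2 in pro-B(+), 8.37 to 8.69 in pro-B(-), 13.1 to 13.2 in pro-B(-)/Mock and 12.02 to 12.53 in pro-B(-)/LMO2 cells, with 6 of 7 tested higher in pro-B(+) cells and 3 of 8 higher and 2 lower with Lmo2. Of all probes, 20.6% were called higher in pro-B(+) cells, and with Lmo2 28% were called higher and 36% lower. Col1a1 and Col1a2, chains of type I collagen, rose by 1.65 and 1.41 in pro-B(+) cells, and Pdgfra, a receptor of mesenchymal cells, by 1.46. Fbn1, Postn and Cxcl12 are named after their values were seen. The Fbn1 signal exceeded that of pro-B(-) cells at least 4.93-fold in pro-B(+) and at least 1.57-fold in pro-B(-)/Mock cells. Postn was well above background in the transductants alone, and pro-B(-)/Mock exceeded pro-B(-) at least 3.78-fold (adjusted p = 4.03e-05). The stromal genes called lower with Lmo2 were Postn (-0.75, adjusted p = 0.00929) and Cxcl12 (-0.37, 0.000915). Lum and Dcn, which mark fibroblasts, were not well above background on any array, and the part of stromal cells in the results was not tested.

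Set in order, the 4 groups separated for Erg and Fli1 at every step. For Ets2 the 2 highest, pro-B(-) and pro-B(-)/Mock, were not told apart beyond their spread (0.04, adjusted p = 0.467). The same 2 groups were not told apart for Spib (adjusted p = 0.752), Spi1 (0.465), Etv6 (0.888), Elf1 (0.164) and Ets1 (0.07). For Etv6 pro-B(+) and pro-B(-)/Mock were not told apart either (0.07, adjusted p = 0.398), for Gabpa neither pro-B(-) and pro-B(+) (0.03, adjusted p = 0.683) nor pro-B(+) and pro-B(-)/Mock (0.13, adjusted p = 0.0685), and for Elf4 no pair of neighbours passed the test. These steps cross the slides where a transductant meets a parental line, and 76.3% of probes differed between pro-B(-)/LMO2 and pro-B(+), 74.3% between pro-B(-)/LMO2 and pro-B(-), and 68.4% of probes for pro-B(-)/Mock against pro-B(+).

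Next, the parental difference was set against the Lmo2 effect in the same fit, as the first change minus the second, which share no array. This contrast was called for all 10 members and for 54.1% of 24584 probes. It was positive for 6 members (29% of probes) and negative for 4 (25.1% of probes), and past 2-fold for 3, Erg, Ets2 and Elf4 (13.8% of probes). With 1 probe per gene, 8069 of 13733 genes were called, and 15.1% were called and past 2-fold. Erg fell further with Lmo2 than between the parental lines by 3.10 (SE 0.14, adjusted p = 4.41e-05), or by 1.38 with normexp background correction, and Ets2 fell further by 1.30 (SE 0.067, adjusted p = 6.78e-05). Spib rose less with Lmo2 than between the parental lines by 0.72 (SE 0.062, adjusted p = 0.000376). Fli1 went opposite ways, with a difference of -0.41 (SE 0.048, adjusted p = 0.00116). The differences of Gabpa, Spi1, Elf1 and Elf4 were near the threshold, at adjusted p = 0.0372, 0.0288, 0.0446 and 0.0336, the other probes of Gabpa and Elf1 did not pass (0.333 and 0.231), and the count fell to 6 without pro-B(-) replicate 1 or 2 or pro-B(-)/Mock replicate 1 or 2.

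Erg was then compared with each other member directly, by fitting the per-array difference between the 2 probes. The parental change of Erg lay below that of each of the 9 others on the signed scale, by differences from -0.55 against Ets2 (SE 0.14, adjusted p = 0.00206) to -4.44 against Spib (SE 0.14, adjusted p = 1.46e-10). With Lmo2 the differences ran from -2.35 against Ets2 (SE 0.14, adjusted p = 1.78e-09) to -6.82 against Spib (SE 0.14, adjusted p = 1.21e-12). All 9 were called in both comparisons, but so were 97.8% and 99.9% of all probes set against Erg, so that the sizes and not the calls set the members apart. Against its nearest relative Fli1 the difference was -1.17 (SE 0.14) and -4.69 (SE 0.14). All these differences share the Erg values and hence its spread: with the ordinary spread of 4 residual degrees of freedom, chosen after seeing the data, the parental difference between Erg and Elf4 was not called (adjusted p = 0.077), and that between Erg and Ets2 was called in both comparisons (adjusted p = 0.00519 and 2.01e-05). With normexp background correction the gap between Erg and Ets2 with Lmo2 shrank to -0.49 and between the parental lines to -0.26, and without pro-B(-) replicate 1 their parental gap was not called (-0.54, adjusted p = 0.0572).

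The genes whose profile over the 8 arrays lay nearest to that of Erg were sought over 11641 named genes that were well above background on all 8 arrays, by the root mean square distance of the profiles after each was centred on its own mean. The 5 nearest were Bcl11b, Igf1, Gas7, Fsip2l and Retnlb, at distances of 0.53, 0.58, 0.59, 0.61 and 0.61 on the log2 scale. Bcl11b, the factor of T-lineage commitment, had mean levels of -2.96 in pro-B(+), -2.20 in pro-B(-), -1.75 in pro-B(-)/Mock and -4.85 in pro-B(-)/LMO2 cells. Its log2 change was -0.76 between the parental lines and -3.09 with Lmo2. Those of Igf1, a growth factor, were -2.25 and -3.52. Among the ETS members Ets2 was by far the nearest, at a distance of 0.87 and rank 20, and the next were Ets1 (1.54, rank 2146), Gabpa (1.58, rank 2974) and Elf1 (1.63, rank 4304). Fli1 followed at 1.84 (rank 8890), and Spib was the farthest at 2.89 (rank 11500). The likeness rests on 4 groups and shared slides and is a description.

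**Figure D3:**
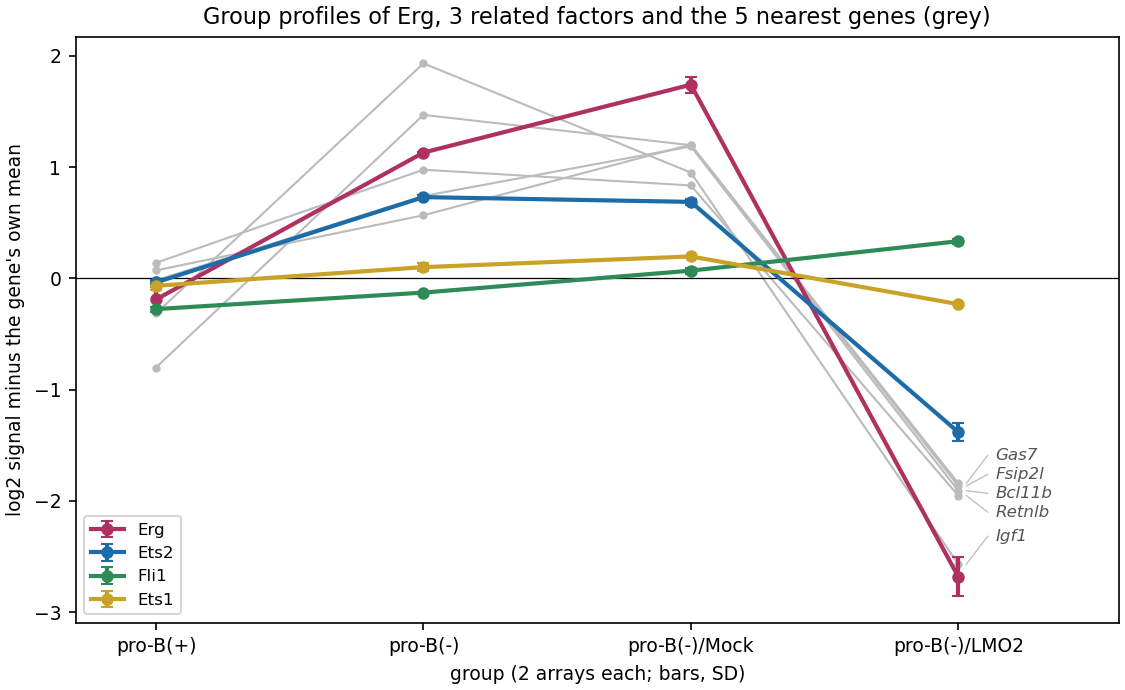
Mean log2 signal of each group minus the gene's own mean over the 4 groups, for Erg, Ets2, Fli1 and Ets1 (coloured, bars are the SD of 2 arrays) and for the 5 genes with profiles nearest to Erg (grey). Erg and Ets2 drop in pro-B(-)/LMO2 cells, as the 5 grey genes do, whereas Fli1 is highest there.

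Of the remaining ETS genes 16 are on the array, and Elf3 was not well above background on any array. In the parental comparison 13 were tested, and pro-B(+) was higher for 5 and lower for 2, with a median of 0.16, beside calls for 48.6% of all probes. With Lmo2 11 were tested, 2 were higher and 4 lower, with a median of -0.04, beside calls for 64% of all probes. Past 2-fold were Spic in the parental comparison and Etv5 with Lmo2. Spic, the SPI factor of red pulp macrophages, was well above background in pro-B(+) cells alone, with a mean of -3.39 ± 0.13 (SD, n = 2), at least 5.32-fold above pro-B(-) cells (adjusted p = 2.63e-05). Etv5, a PEA3-type factor, had mean levels of 2.44 ± 0.10 in pro-B(+), 1.54 ± 0.015 in pro-B(-), 1.23 ± 0.014 in pro-B(-)/Mock and -0.74 ± 0.016 in pro-B(-)/LMO2 cells (SD, n = 2). Etv5 was 1.87-fold higher in pro-B(+) by the limma fit (adjusted p = 8.49e-05) and 3.93-fold lower with Lmo2 (adjusted p = 5.19e-06), on opposite sides of 0.

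**Figure D4:**
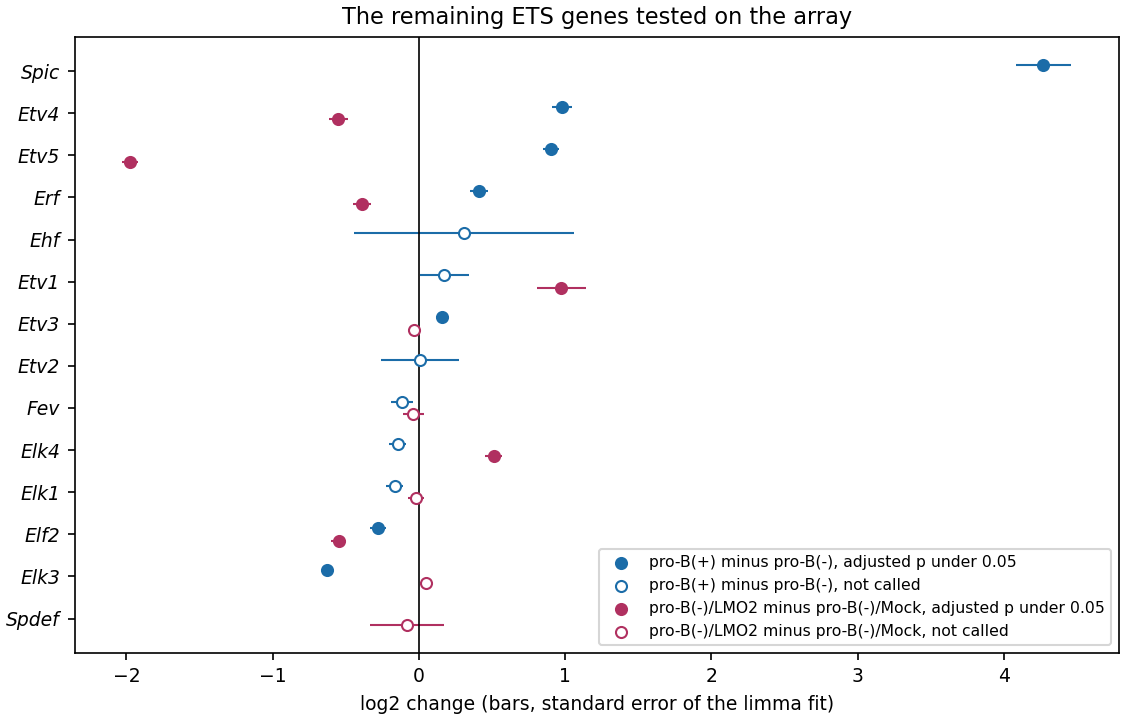
Log2 change of the remaining ETS genes that were tested, in pro-B(+) minus pro-B(-) cells (blue) and pro-B(-)/LMO2 minus pro-B(-)/Mock cells (red), with the standard error of the limma fit; filled points passed an adjusted p of 0.05. The Spic point is the fitted change, of which only the bound of at least 5.32-fold was measured, and it has no red point because it was not well above background in either transductant, and Etv5 lies at 0.90 and -1.98.

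Factors that bind DNA or enhancers with ETS proteins were counted beside the shares over all probes, of which 48.6% were called in the parental comparison and 64% with Lmo2. Of 9 such partners 8 were tested, with 2 higher and 4 lower in pro-B(+) cells (median -0.15) and 3 higher and 3 lower with Lmo2 (median -0.06). Irf4 and Irf8, which bind composite sites together with PU.1 or Spi-B, rose in pro-B(+) cells by 2.82 (SE 0.14, adjusted p = 3.75e-05) and 2.10 (SE 0.041, adjusted p = 1.49e-06), and with Lmo2 by 1.81 (SE 0.14, adjusted p = 0.000154) and 1.82 (SE 0.041, adjusted p = 2.84e-06). Runx1 fell in pro-B(+) cells by 1.11 (adjusted p = 2.22e-05) and with Lmo2 by 0.17 (adjusted p = 0.0218). The LMO2 partners Lyl1 and Tal1, named after their values were seen, changed by -0.90 and 0.30 with Lmo2 (adjusted p = 2.99e-05 and 0.000916), and Gata2 was not well above background on any array.

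Known targets of PU.1 were counted beside Spi1 and Spib. Of 11 targets, 11 were tested in the parental comparison, with 7 higher and 1 lower (median 0.37), and 9 with Lmo2, with 4 higher and 2 lower (median 0.09). Of all probes, 48.6% were called in the parental comparison (20.6% higher, 28% lower) and 64% with Lmo2 (28% higher, 36% lower). Csf1r, the macrophage growth factor receptor, rose by 4.45 in pro-B(+) cells and by 0.75 with Lmo2 (adjusted p = 3.98e-07 and 8.58e-05). Csf2ra rose by 1.29 and 0.42, and Fcgr1 rose by 1.96 in pro-B(+) cells and at least 1.42-fold with Lmo2. Cybb and Tlr4, named after their values were seen, were well above background in pro-B(+) cells alone. They were at least 21.4-fold (adjusted p = 0.000158) and at least 4.01-fold (0.000189) above pro-B(-) cells. The targets called lower, named after their values were seen, were Fcgr3 in pro-B(+) cells (-0.98, adjusted p = 2.37e-05) and Csf3r (-0.27, 0.0163) and Btk (-0.22, 0.00269) with Lmo2. Several of these genes are also read as myeloid markers.

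Targets of FLI1 and ERG in megakaryocytes were mostly dim. Of 6 genes 3 were tested in each main comparison, with 1 higher and 1 lower in pro-B(+) cells (median 0.17) and 2 higher and 0 lower with Lmo2 (median 1.43). The shares of all probes called higher and lower were 20.6% and 28% in the parental comparison, and 28% and 36% with Lmo2. Gp9, a chain of the platelet glycoprotein Ib complex, fell by 0.57 in pro-B(+) cells (adjusted p = 0.00101) and rose by 1.43 with Lmo2 (adjusted p = 2.54e-05), while Erg fell in both. Pf4, a platelet chemokine, was well above background in pro-B(+) cells alone, at least 2.40-fold above pro-B(-) (adjusted p = 6.81e-05), and Itga2b, the platelet integrin chain, in pro-B(-)/LMO2 cells alone, at least 6.24-fold above pro-B(-)/Mock (9.65e-05). Both are named after their values were seen. Gp1ba and Gp6 were not well above background on any array. The summed level of the list was 0.310 to 0.336 in pro-B(+), 0.370 to 0.383 in pro-B(-), 0.433 to 0.438 in pro-B(-)/Mock and 1.15 to 1.22 in pro-B(-)/LMO2 cells.

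Markers of the other cell types that express these factors were read beside them. Of all probes tested, 20.6% were called higher and 28% lower in the parental comparison, and 28% and 36% with Lmo2. Of 6 endothelial markers 3 were tested in each main comparison, with 1 higher and 1 lower in both, and their summed level was 1.43 to 1.82 in pro-B(+), 1.89 to 1.95 in pro-B(-), 1.95 to 2.05 in pro-B(-)/Mock and 2.12 to 2.23 in pro-B(-)/LMO2 cells. Pecam1, which leukocytes share, fell in pro-B(+) cells by 1.13 (adjusted p = 5.78e-05) and with Lmo2 by 0.24 (adjusted p = 0.017). Vwf and Kdr are named after their values were seen. Vwf rose by 3.25 in pro-B(+) cells (adjusted p = 2.97e-05) and by 0.85 with Lmo2 (0.00416). It was well above background on 1 of 2 arrays in pro-B(-) and in pro-B(-)/Mock cells. Kdr changed by -0.22 and 0.24 and was not called (0.306 and 0.235). The defining endothelial genes Cdh5, Tek and Tie1 were not well above background on any array. All 6 plasmacytoid dendritic markers were tested, with 4 higher and 1 lower in pro-B(+) cells (median 0.34) and 3 higher and 1 lower with Lmo2 (median 0.26). Irf7, an interferon regulator, rose by 1.45 and 2.47, Runx2 by 0.81 and 0.60, and Tcf4 by 0.43 and 0.75. The other 3 markers, named after their values were seen, did not rise in both. Bst2 fell by 0.31 in pro-B(+) cells (adjusted p = 0.00145) and was at -0.08 with Lmo2 (0.126), Ccr9 changed by 0.24 in pro-B(+) cells (0.00739) and by -0.55 with Lmo2 (0.000196), and Siglech was at -0.25 and -0.13 and was not called (0.076 and 0.284). Their summed level was 74.8 to 79.3 in pro-B(+), 76.1 to 80.0 in pro-B(-), 108 on both pro-B(-)/Mock arrays and 87.4 to 92.5 in pro-B(-)/LMO2 cells. Among 12 of the 13 pro-B markers that were tested, pro-B(+) was higher for 2 and lower for 6 (median -0.37), and 3 were higher and 6 lower with Lmo2 among 11 (median -0.46). Rag1, which opens antigen receptor gene rearrangement, fell with Lmo2 by 2.78 and in pro-B(+) cells by 0.77, Dntt, the terminal transferase, fell in pro-B(+) cells by 2.92 and rose with Lmo2 by 4.02, and Kit rose by 2.24 and 1.55. The part of these cell types in the results was not tested.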

How the data were processed

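Total RNA of 8 samples was labelled with Cy3 and hybridised to single-colour Agilent whole mouse genome arrays, 2 per group. Per the file headers, the spot intensity was deposited as the processed signal of Agilent Feature Extraction 11.5.1.1, background subtracted and detrended. The authors also deposited log2 values scaled to the 75th percentile in GeneSpring GX, which were used as an alternative and differed from the main values by one constant per array.

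Control and outlier spots were left out, and log2 intensities were averaged per probe. Of 39429 probes, 51 had no spot left on some array and 39378 were analysed. Each array's 75th percentile was subtracted. Accessions were matched without versions to RefSeq (GRCm38.p6), which named 26550 probes (67.4%); the array was designed on another build. The 75th percentile of the intensity ranged from 604 to 949 and 0 spots were saturated. With 2 arrays a group their number limits the precision, and an exact permutation test could not go below p = 0.333 (2-sided).

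All arrays entered 1 limma 3.58.1 fit (R 4.3.3) of 4 group means, with 4 residual degrees of freedom, lmFit and eBayes. A probe was tested where both arrays of 1 or more of the groups compared had it well above background, and calls used a Benjamini-Hochberg adjusted p under 0.05 over all probes tested. Errors are standard errors of the fit unless an SD is named. A probe not well above background in 1 group has only a bound, "at least", against the higher of its own signal and the array's lowest signal well above background.

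The text names all members, other ETS genes called and past 2-fold (at most 6), at most 3 genes of each other list (the largest called changes well above background on all 4 arrays compared) and the 5 genes most like Erg. Lyl1, Tal1, Bst2, Ccr9, Siglech, Fcgr3, Csf3r, Btk, Cybb, Tlr4, Adgre1, Lyz2 and Cebpa were added outside this rule after their values were seen. So were Pf4, Itga2b, Vwf, Kdr, Postn, Fbn1, Cxcl12 and genes named for not being well above background. The members and lists were chosen with earlier results of these data known. Replicate numbers did not pair the arrays: the replicate differences of 2 groups correlated between -0.03 and 0.05. Scaling, background correction, filters, the choice of probe, the intensity trend, the replicate block and left-out arrays were varied.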

Additional observations from a re-analysis of the deposited data

How the results depend on the processing

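The 64 results were recomputed under 19 settings, which gave 1141 values, of which 1055 kept their direction and their side of the threshold (counts of members, within 1.5 times) and 86 did not. The deposited log2 matrix and the filter to probes well above background on all arrays compared changed none. With the replicate block, which changed 3 of 64 values, Gabpa lost its call for pro-B(-)/Mock against pro-B(-) (adjusted p = 0.067), and Gabpa and Elf1 lost theirs in the difference of the parental and the Lmo2 effect (adjusted p = 0.059 and 0.0579). Otherwise the block changed no call. The number of members called ranged from 5 to 7 in the parental comparison, from 9 to 10 with Lmo2, from 2 to 3 between pro-B(-)/Mock and pro-B(-), and from 6 to 8 for the difference, when 1 array was left out. With no filter on dim probes the difference was called for 6 members, where more probes enter the adjustment. The sign turned for Etv6 in the parental comparison with median scaling (-0.20), for Spib between pro-B(-)/Mock and pro-B(-) with quantile normalization (-0.016) and with normexp (-0.018), and for Elf1 there with the mean of its probes (-0.059). With 1 array left out, uncalled changes near 0 turned too: the parental change of Gabpa ranged from -0.075 to 0.020 and that of Etv6 from -0.019 to 0.19, and between pro-B(-)/Mock and pro-B(-) that of Etv6 ranged from -0.090 to 0.11 and that of Spib from -0.020 to 0.055. The cause was not tested. The probe that stood for Erg was well above background on both pro-B(-)/LMO2 arrays, at dim levels of -5.50 and -5.26, and the other Erg probe on neither. Elf4 was well above background on all 8 arrays, and its spread was largest in pro-B(-)/LMO2 cells (SD 0.65, n = 2).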
